A study of Rattus norvegicus with 3 samples.

Results

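Gene expression in cultured rat granulosa cells was compared between cells given FSK (forskolin) together with PMA (phorbol 12-myristate 13-acetate) for 6 h and cells left without them. All genes of the array were compared between 2 of the 3 arrays of the series, chosen by their labels, and 9395 of 14218 genes gave a measurable signal. The granulosa cells came from female Sprague-Dawley rats 24 to 25 days old, by puncture of follicles 48 h after PMSG (pregnant mare's serum gonadotropin), which brings follicles to the preovulatory stage. Both groups carried Ad-GFP, an adenovirus for green fluorescent protein, at 50 pfu per cell, removed after 2 h. At 24 h after infection, 1 group received 10 uM FSK and 20 nM PMA for 6 h, and the other was left without the stimulus. The labels do not say whether that control received the solvent. In the remaining group cells with Ad-NFIL3, a virus for the transcription factor NFIL3, had the same FSK/PMA. RNA of 3 experiments was pooled for 1 array per group, so there is no replicate check, and each difference compares a pair of pools. No uninfected cells were used here, so every value belongs to cells exposed to a virus.

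Granulosa cells surround the oocyte and make estradiol, and luteinizing hormone (LH) turns them toward ovulation and luteinization. The LH receptor raises cyclic AMP, which activates protein kinase A, the kinase of the factor CREB on cyclic AMP response elements, and it also engages protein kinase C and the ERK kinases. FSK activates adenylyl cyclase directly and PMA activates protein kinase C, so the pair bypasses the receptor. Such signals first raise immediate early transcription factors and then enzymes, peptides and matrix proteins, while feedback proteins restrain the kinases.

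Signals are MAS5 intensities, and those below 126, the median of all values on the 3 arrays, were raised to that floor. A fold against an array below the floor is given as at least its size. A gene is called within 2-fold by its floored signals, while the signals printed are those deposited. Where 3 signals follow a gene, they belong in order to the control array, the FSK/PMA array and the Ad-NFIL3 array with FSK/PMA. The 3 arrays had 48.1% to 51.8% of probe sets above the floor. Spiked hybridisation controls were 1.3-fold brighter with FSK/PMA than on the control array. The ratio of 3' to 5' signal went from 3.21 in the control to 5.04 with FSK/PMA for hexokinase, from 2.61 to 3.8 for beta-actin and from 1.28 to 1.15 for Gapdh, so that 2 of the 3 ratios were higher with FSK/PMA. The part of these differences in the results was not tested. Pairs of probe sets for 1895 genes gave a robust SD of 0.35 for a log2 difference, which holds no variation between cultures. Of 19 granulosa cell markers on the array 18 were measured, among them Inha with signals of 26489, 29911 and 18604 and Foxl2 with 4616, 1361 and 1101.

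With FSK/PMA 699 genes were at least 2-fold higher (7.44% of those measured) and 1072 were at least 2-fold lower (11.4%). At 4-fold the counts were 163 higher (1.73%) and 154 lower (1.64%). At 16-fold 24 genes were higher and 3 were lower, and 9 genes were at least 32-fold higher against 0 lower. The remaining 7624 genes (81.1%) lay within 2-fold. Scaling the arrays to their medians raised the median log2 difference of all genes by 0.13, from -0.10 to 0.03. The counts were then 856 higher and 852 lower, so that 50.1% of differing genes were higher in place of 39.5%. With a floor at the 75th percentile of signals the counts were 421 and 402, a higher share of 51.2%. Of the 1771 genes past 2-fold, 1770 kept their direction under the 4 other scalings, the exception being G3bp2, and 1462 stayed past 2-fold under each. They were picked as past 2-fold, and array median scaling moved the median by only 0.13. Their kept direction is therefore no independent check.

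**Figure D1:**
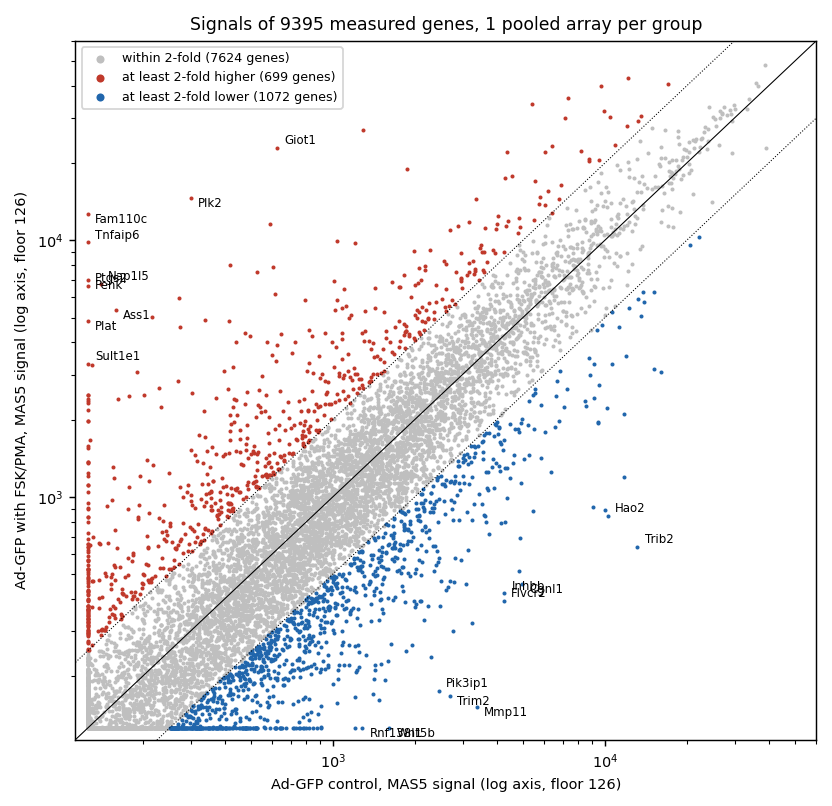
MAS5 signal of 9395 genes on the control array (x, log axis) and on the Ad-GFP array with FSK/PMA (y, log axis), each raised to the floor of 126. The solid line marks equal signals and the dotted lines mark 2-fold. Red points are the 699 genes at least 2-fold higher, blue points the 1072 at least 2-fold lower, and the highest and lowest named genes carry their symbols.

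Of those 18 granulosa cell markers 8 (44.4%) were at least 2-fold lower with FSK/PMA and 2 were higher, with a median log2 difference of -0.49. The sums of signals that follow hold all markers of a list on the array, also those below the floor. For granulosa cell markers the sums were 109644 for the control, 79044.6 for FSK/PMA and 45422 for the Ad-NFIL3 sample. Theca and stroma markers were measured in 6 of 13 cases, and their summed signals were 4660.1, 2871 and 3629.7. Leukocyte markers, 8 of 18 measured, summed to 3630.1, 4074 and 4315, and endothelial markers, 2 of 9 measured, summed to 599, 592 and 769.7. Oocyte markers, 1 of 7 measured, summed to 1083, 629 and 542. Red cell markers were measured in 2 of 5 cases and summed to 20063, 18537 and 15807, nearly all of it from beta globin, Hbb, with 19442, 18005 and 15376. Cyp17a1 and Insl3 of theca cells, Ptprc of leukocytes, Pecam1 of endothelium, and Gdf9 and Zp3 of oocytes were below the floor on all 3 arrays. Other members of these lists were above it, among them Nr2f2 of theca and stroma with 3232, 1579 and 1883. Of the leukocyte markers Lyz2 had 1110, 769 and 970 and Cd14 had 606, 1488 and 1562. Kdr of endothelium had 190, 180 and 138, and Zp2 of oocytes had 891, 406 and 269. The part of other cells in the results was not tested.

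The excess of lower genes depended on brightness. Genes were grouped by the mean of their control and FSK/PMA signals. Among 1792 genes with a mean of 2 to 4 times the floor, 19.0% were at least 2-fold lower and 7.31% were higher. Among the 819 genes with a mean of at least 32 times the floor, 5.13% were lower and 12.2% were higher. The median log2 difference went from -0.29 to 0.15 between those groups. The dimmest 1858 genes, below 2 times the floor, had 8.83% lower and 3.5% higher, both less than at 2 to 4 times. The means used deposited signals and the differences used floored ones. In this group the floor limits how large a difference can be, so its shares cannot be compared directly with those of brighter groups. The highest and lowest genes were taken from signals of at least 504 on the brighter array, which is 4 times the floor, and the fixed lists hold dimmer genes too.

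The 30 genes with the highest difference ranged from at least 101-fold, for Fam110c, to 13.9-fold, for Adamts4. Of these, 14 were below the floor without the stimulus. Fam110c had signals of 114, 12704 and 7475. The enkephalin precursor Penk had signals of 53.2, 7021 and 4821, and the polo-like kinase Plk2, which is induced by many stimuli, had 299.99, 14620.4 and 6539. In all 3 of these genes the control array was the low one. They were picked by their difference from it, which fixed its place below the FSK/PMA array. The Ad-NFIL3 array is set against the same control array, so it gives no independent check. The same holds wherever the control is said below to be lowest or highest for genes named by their difference.

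The genes that ranked from 11 to 30 were less extreme. The adhesion G protein-coupled receptor gene Adgrg6 had signals of 130.2, 3273 and 1182 and was 25.1-fold higher. Adcyap1, the precursor of the peptide PACAP, which itself raises cyclic AMP, had signals of 79.2, 2492 and 621 and was at least 19.8-fold higher. Nmu, the precursor of neuromedin U, had signals of 6.22, 2329 and 1285 and was at least 18.5-fold higher. For these peptides the control signal lay below the floor, so the folds are lower limits. The secretory granule protein gene Ptprn had signals of 526, 7508 and 5466 and was 14.3-fold higher. Hapln3, whose product links hyaluronan to proteoglycans, had signals of 73.8, 2418 and 1355 and was at least 19.2-fold higher. Clmp and Pvr, genes for immunoglobulin-like surface proteins, were at least 15.7-fold higher and 14.4-fold higher. Their FSK/PMA signals were 1969 and 4907, each above the control signal of 125 and 340.5.

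Enzyme genes were also found among these 20 genes. Asns makes asparagine, and its signals of 271, 5959.9 and 3701 gave a value 22.0-fold higher. Akr1b8, an aldo-keto reductase, had signals of 1294, 26826 and 21806 and was 20.7-fold higher. Olah encodes a thioesterase that releases medium-chain fatty acids, and it had signals of 274, 4603 and 4508, 16.8-fold higher with FSK/PMA. On both arrays with FSK/PMA these enzymes stood above the control array that was used to pick them. Aadat, an aminotransferase, was 14.8-fold higher, with signals of 163, 2416 and 2012. Gmnn encodes geminin, which blocks the licensing of replication origins, and was 23.1-fold higher with signals of 217, 5006 and 2849. Its second probe set was dim, with 68.0, 189.6 and 171 and a log2 difference of 0.59. The tubulin gene Tubb6 was at least 17.3-fold higher, with signals of 116, 2175 and 1989, while Tubb5 had 10926, 11089 and 10719 and Tubb2b had 595, 423 and 407. Tubulin genes are near copies of each other, so probe sets may share signal.

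**Figure D2:**
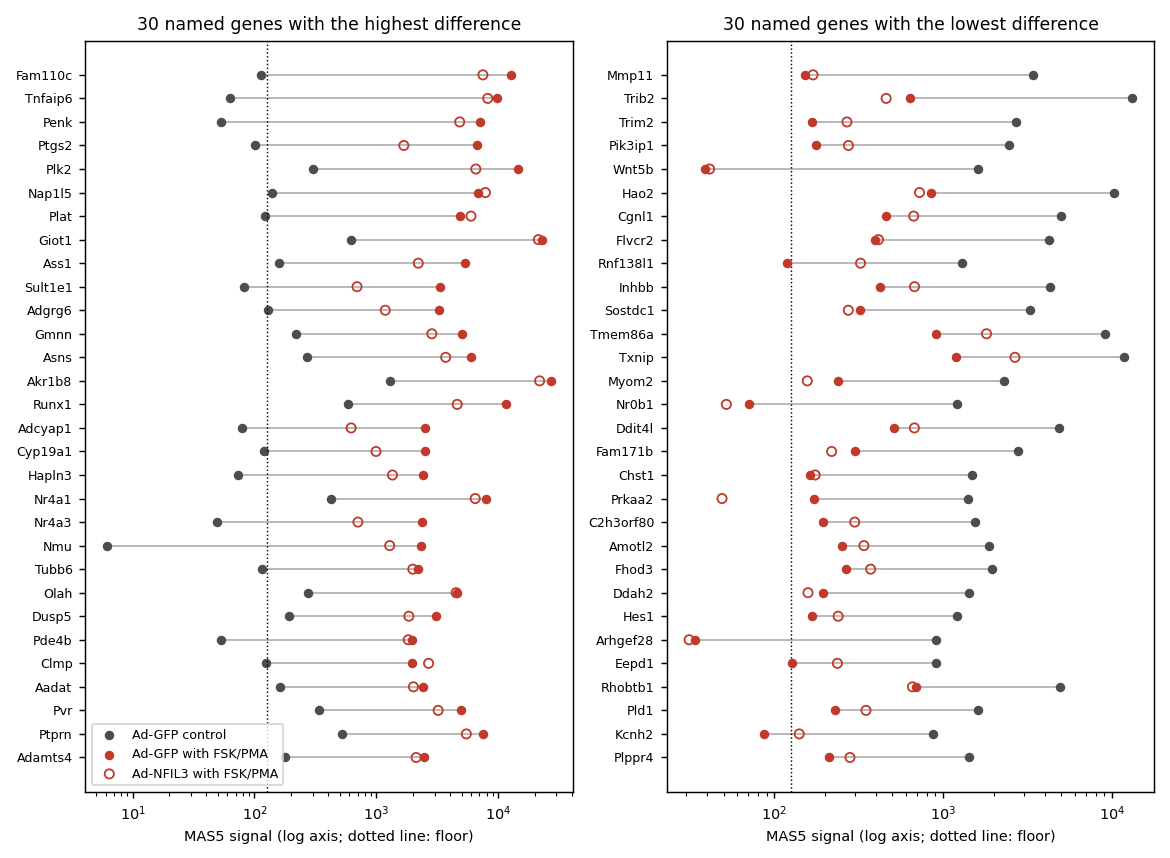
MAS5 signals (log axis) of the 30 highest genes (left) and the 30 lowest (right), ordered by their difference from the top. Grey points are the Ad-GFP control array, filled red points the Ad-GFP array with FSK/PMA, open red points the Ad-NFIL3 array with FSK/PMA, and the dotted line is the floor of 126. The 14 genes whose grey point lies left of the line in the left panel have only a lower limit for the fold.

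A further 26 genes were at least 8-fold higher, of which 11 belong to none of the fixed lists or rules and were chosen after their values were seen. Gfpt2, which makes glucosamine phosphate for hyaluronan and glycoproteins, had signals of 603, 7890.4 and 5272 and was 13.1-fold higher. Cd55, a surface inhibitor of complement, had 416, 4868 and 3121 and was 11.7-fold higher. The neuropeptide Y receptor gene Npy1r had 85.2, 1354 and 1195 and was at least 10.8-fold higher. In each of these the control signal was the lowest. The chromatin protein gene Hmga1 was 9.18-fold higher, Car2, carbonic anhydrase, was at least 8.84-fold higher, and the kinase gene Dclk1 was 10.1-fold higher. Antxr2, Cotl1, Osgin2, Tchh and Upk1b were 9.60-fold, 11.6-fold, 9.12-fold, at least 9.83-fold and at least 12.3-fold higher. The sulfotransferase Sult1b1, the on gene ranked 15, had signals of 88.5, 1575 and 661 and was at least 12.5-fold higher.

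The 30 genes with the lowest difference ran from 22.3-fold, for Mmp11, to 6.79-fold, for Plppr4, and 5 of them were below the floor on the FSK/PMA array. The matrix metalloproteinase gene Mmp11 had signals of 3393, 152 and 169, and the pseudokinase Trib2 had 13173, 638 and 459. Hao2, a peroxisomal hydroxy acid oxidase, had 10291, 845 and 724. Control signals were the highest for all 3. Sostdc1, a secreted antagonist of BMP and WNT signals, had 3246, 322 and 274 and was 10.1-fold lower. Txnip, which binds thioredoxin and restrains glucose uptake, had 11798, 1192 and 2660.1 and was 9.90-fold lower. Tmem86a, a membrane protein gene, had 9055, 910.4 and 1805 and was 9.95-fold lower. Again the control array was the bright one.

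Ranks 14 to 30 among the lowest genes ran from 9.68-fold to 6.79-fold lower. Prkaa2, a catalytic subunit of AMP-activated kinase, had 1409.8, 171 and 49.0 and was 8.23-fold lower, and Ddah2, which degrades methylated arginine, had 1422, 194 and 158 and was 7.32-fold lower. Amotl2, an angiomotin of the Hippo pathway, had 1862, 251 and 339 and was 7.43-fold lower. The formin Fhod3 was 7.34-fold lower, the sarcomere protein gene Myom2 was 9.68-fold lower, and Rhobtb1 was 7.09-fold lower. Pld1, phospholipase D, had 1598, 229.9 and 349 and was 6.95-fold lower, and all 3 of its measured probe sets were lower. The sulfotransferase Chst1 was 9.12-fold lower, Ddit4l, known to restrain mTOR, was 9.43-fold lower, and Fam171b was 9.17-fold lower. C2h3orf80, Eepd1 and Plppr4 were 8.04-fold, 7.15-fold and 6.79-fold lower.

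Of 48 genes that went from below the floor to at least 504, Fam110c was the first. In the opposite direction 34 genes went from at least 504 to below the floor. Besides Wnt5b, Nr0b1, Arhgef28 and Kcnh2, these included several regulators of transcription. Foxp2, a forkhead factor, had 849, 114 and 122 and was at least 6.74-fold lower. Myocd, the coactivator of serum response factor in smooth muscle, had 816, 109 and 112 and was at least 6.48-fold lower. Pknox2, a homeobox gene, had 752, 78.9 and 103 and was at least 5.98-fold lower, and the zinc finger gene Zfp467 had 675, 98.6 and 298 and was at least 5.37-fold lower. Only the control array stood above the floor for Foxp2, Myocd and Pknox2. Gsdmd, the pore-forming gasdermin, was at least 6.03-fold lower and Rnf213 was at least 6.17-fold lower. In bulk RNA fewer cells of a type and less RNA per cell cannot be told apart, and this holds for each lower gene named here.

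RefSeq promoter windows of 300 bases, from 250 before to 50 after a start in assembly GRCr8, were searched on both strands for the cyclic AMP response element (CRE, TGACGTCA), its 5-base core (TGACG), the AP-1 site (TGANTCA), the NGFI-B element (NBRE, AAAGGTCA), the SF-1 site (CAAGGTCA), the C/EBP site (TTGCGNAA) and the E-box (CACGTG). Every CRE also holds the core. These windows were found for 23 of the 30 highest and 22 of the 30 lowest genes. Among the highest 30 a CRE occurred in 2 genes, an AP-1 site in 5 and the core in 10. Among the lowest 30 the counts were 0, 2 and 2. Of the 10 windows that hold a CRE, an AP-1 site or an NBRE in these 60 genes, the 5 that belong to the 10 highest or the 10 lowest genes are shown, and capitals mark those sites only. The others belong to Nmu, Olah, Pde4b, Eepd1 and Pld1.
Fam110c promoter, chr6:53365763-53366062, plus strand: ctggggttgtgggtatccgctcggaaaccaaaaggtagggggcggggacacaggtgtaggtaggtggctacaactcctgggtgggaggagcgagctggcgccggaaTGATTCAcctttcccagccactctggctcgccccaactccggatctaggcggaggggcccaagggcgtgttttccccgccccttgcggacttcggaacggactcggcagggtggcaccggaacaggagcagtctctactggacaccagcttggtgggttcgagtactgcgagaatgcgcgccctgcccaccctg
Tnfaip6 promoter, chr3:56911148-56911447, plus strand: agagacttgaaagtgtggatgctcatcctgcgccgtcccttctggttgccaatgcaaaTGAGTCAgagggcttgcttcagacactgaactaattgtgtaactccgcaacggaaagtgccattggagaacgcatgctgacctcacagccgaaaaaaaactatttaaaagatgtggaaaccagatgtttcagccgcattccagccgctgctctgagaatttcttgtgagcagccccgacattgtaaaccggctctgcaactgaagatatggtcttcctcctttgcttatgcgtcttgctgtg
Plk2 promoter, chr2:43702286-43702585, plus strand: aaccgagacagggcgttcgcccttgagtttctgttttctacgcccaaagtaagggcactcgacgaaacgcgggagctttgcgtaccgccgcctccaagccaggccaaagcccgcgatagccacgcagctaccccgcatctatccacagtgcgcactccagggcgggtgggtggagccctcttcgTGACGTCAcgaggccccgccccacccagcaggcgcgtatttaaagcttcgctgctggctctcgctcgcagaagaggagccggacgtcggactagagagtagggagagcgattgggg
Giot1 promoter, chr7:10886916-10887215, minus strand: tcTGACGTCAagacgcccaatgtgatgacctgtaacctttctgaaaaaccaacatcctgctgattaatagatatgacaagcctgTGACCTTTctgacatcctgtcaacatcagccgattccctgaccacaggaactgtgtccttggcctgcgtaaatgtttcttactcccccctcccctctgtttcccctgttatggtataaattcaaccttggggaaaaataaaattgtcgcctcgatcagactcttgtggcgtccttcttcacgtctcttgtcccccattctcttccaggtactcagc
Trim2 promoter, chr2:171862395-171862694, minus strand: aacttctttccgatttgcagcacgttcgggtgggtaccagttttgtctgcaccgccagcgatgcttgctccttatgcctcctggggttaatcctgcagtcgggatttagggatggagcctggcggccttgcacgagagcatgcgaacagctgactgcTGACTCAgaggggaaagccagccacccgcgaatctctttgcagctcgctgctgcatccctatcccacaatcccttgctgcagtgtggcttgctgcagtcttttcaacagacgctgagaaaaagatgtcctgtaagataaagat

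The CRE of Plk2 began at -66, counted from the start, and that of Giot1, a zinc finger gene induced by gonadotropins, began at -248. The Giot1 window also held an NBRE, the element bound by NR4A receptors, at -166. Fam110c had an AP-1 site at -144 and Tnfaip6 had one at -192. Of the lowest genes Trim2 had an AP-1 site at -93 and Pld1 had 2, at -231 and -191, so the site was not limited to higher genes. A match describes letters and is no evidence of binding.

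Over all measured genes with a promoter entry, 3.26% of 8770 windows held a CRE. The share was 9.8% of 51 windows for genes at least 8-fold higher, 5.44% of 147 windows at 4-fold higher and 4.68% of 641 windows at 2-fold higher. For lower genes it was 1.28% of 1017 windows at 2-fold and 0 of 158 windows at 4-fold. The 5 windows of the 8-fold group belonged to Areg, Crem, Giot1 and Plk2. An AP-1 site occurred in 15.7% of windows in the 8-fold higher group, 10.9% at 4-fold higher, 5.06% at 4-fold lower and 4.72% of all measured windows. The core stood at 45.1% for 8-fold higher and 18.4% for 4-fold lower against 33.3% of all measured windows. An E-box occurred in 3.92% of 8-fold higher windows, 12.0% of 4-fold lower windows and 9.78% of all. An NBRE occurred in 1 of 51 windows at 8-fold higher (1.96%), 3 of 158 at 4-fold lower (1.90%) and 0.83% of all measured windows. The SF-1 site occurred in 0 of 51, 1 of 158 and 0.96%, and the C/EBP site in 1 of 51, 1 of 158 and 1.27%. In the whole RefSeq table of 33469 windows a CRE occurred in 1.83%, the core in 21.2%, an AP-1 site in 7.33%, an NBRE in 1.43%, an SF-1 site in 1.52%, a C/EBP site in 0.85% and an E-box in 6.42%. Windows of the 8-fold higher group had a median GC content of 56.7% and 14 CpG, against 61.0% and 21 for all measured windows. The part of base composition in these shares was not tested.

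**Figure D3:**
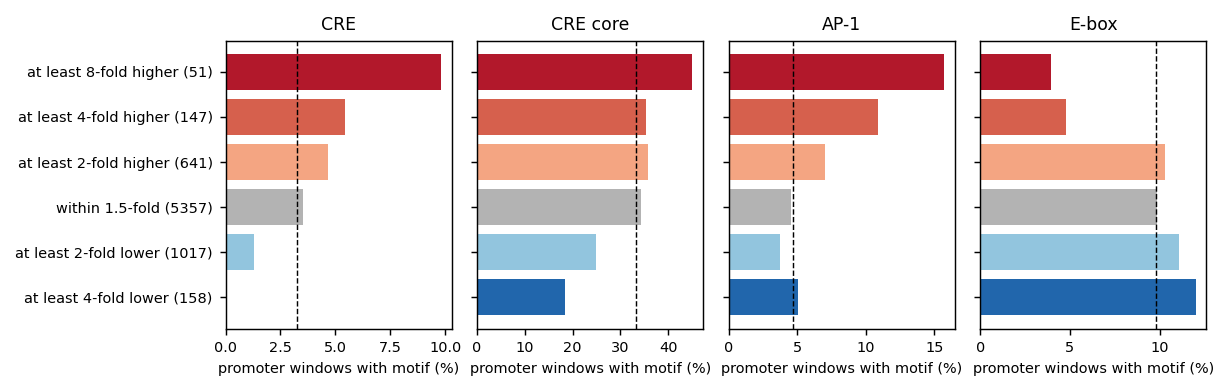
Share of RefSeq promoter windows with a CRE, its core, an AP-1 site or an E-box, by the difference of the gene with FSK/PMA, with the number of windows in brackets. The dashed line is the share over all measured genes. The CRE share runs from 0 of 158 windows at 4-fold lower to 9.8% of 51 windows at 8-fold higher.

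The gene lists that follow were described by counts past 2-fold, to be read against 7.44% higher and 11.4% lower, and by the median log2 difference, to be read against -0.10 for all genes. They cover measured members only, and a member below the floor without the stimulus was measured because it was high with it, so counts and medians describe those that passed. With a pseudocount in place of the floor all 14218 genes entered, and 3.92% were at least 2-fold higher and 4.87% lower. For some lists values under another setting follow, and a list given without them may also differ between settings. Among 80 medians of lists and families, 24 changed sign between scalings, and no direction is given for those lists as a whole. All 424 list and family genes past 2-fold kept their direction under every scaling, and 371 stayed past 2-fold. Being picked as past 2-fold, they give no independent check of direction either.

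**Figure D4:**
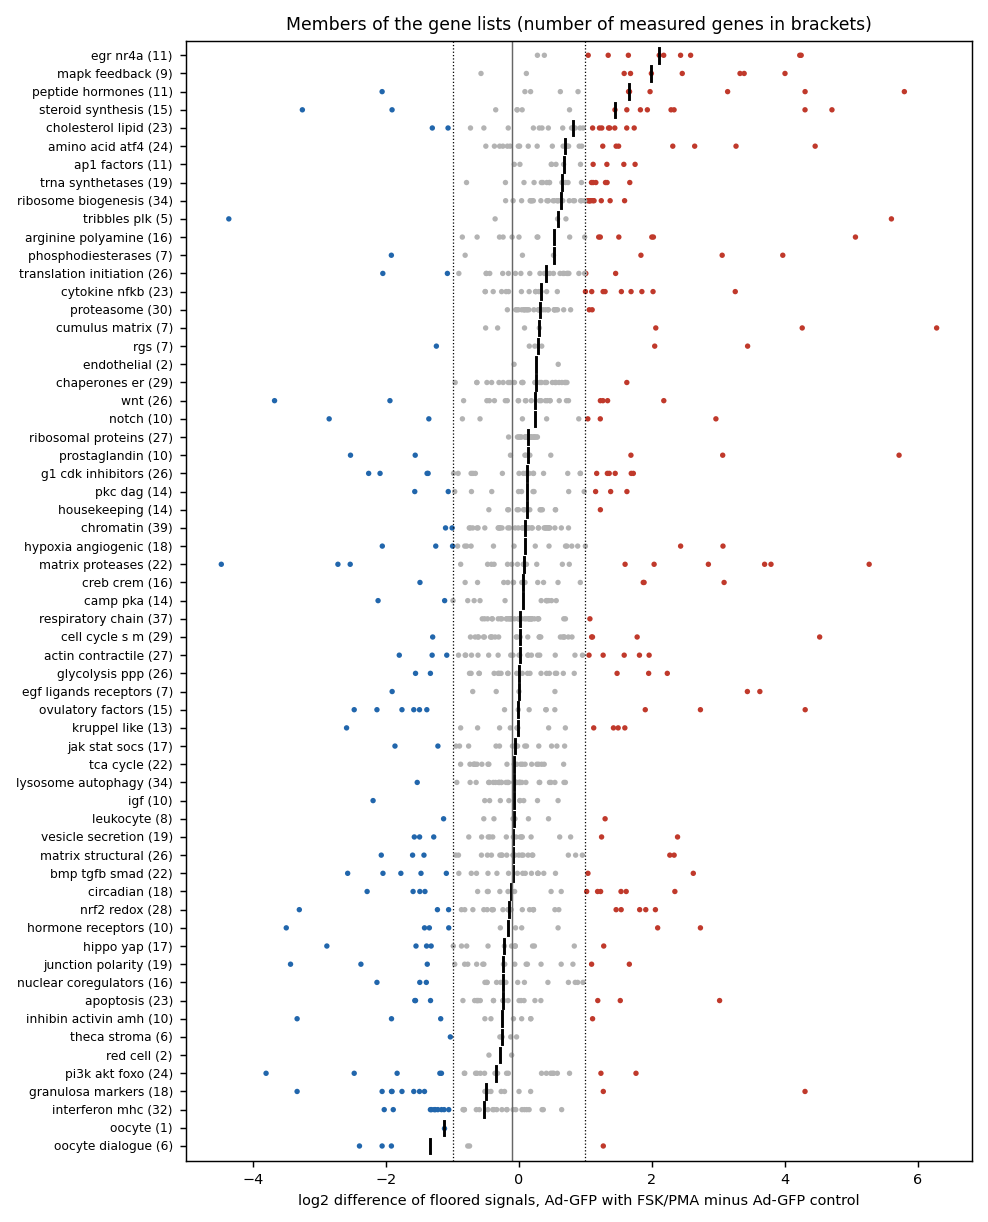
The log2 difference of each measured member (points) in 61 gene lists, FSK/PMA minus control, with the number of measured members in brackets. Black ticks are list medians, the grey line is the median of all genes at -0.10, and dotted lines mark 2-fold, beyond which points are red or blue. At this floor the EGR and NR4A list has the highest median, 2.11, and all of its 11 members lie above the grey line.

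Components of the cyclic AMP pathway itself lay near the background, in which 81.15% of measured genes were within 2-fold. There were 14 measured genes for adenylyl cyclases, kinase A subunits, inhibitors and anchors. Of these 12 lay within 2-fold, 0 were at least 2-fold higher and 2 (14.3%) were lower. Another 7 members were below the floor on both arrays. The anchor gene Akap12 had signals of 1532, 352 and 1135 and was 4.35-fold lower, and the kinase inhibitor gene Pkig had 3583, 1649 and 2118 and was 2.17-fold lower. The regulatory subunit gene Prkar1a had 8343, 11158 and 10611 and the catalytic subunit gene Prkacb had 2484, 3324 and 2307, so each was close on all arrays. Protein kinase C and phospholipase C genes had 3 higher and 2 lower among 14 measured members. Plcb1 was 3.08-fold higher, with signals of 182, 562 and 519.6, while its relative Plcb4 was 2.97-fold lower, with 1719.6, 579 and 581. Prkca, a kinase that PMA activates, had 185, 411 and 407 and was 2.23-fold higher.

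Genes that break down cyclic AMP or curb receptors and kinases were among the higher ones. The phosphodiesterases Pde4b and Pde4d, which hydrolyse cyclic AMP, had signals of 52.9, 1974 and 1825 (Pde4b) and 74.7, 1049 and 739 (Pde4d), and Pde4d was at least 8.33-fold higher. Pde10a was 3.57-fold higher, with 415, 1483 and 1600.3. Pde4c had 221, 24.6 and 216, Pde7a had 269.7, 387 and 289 and Pde8a had 1286, 1333 and 1274, each within 2-fold, whereas Pde6d was 3.79-fold lower with 834, 220.2 and 271. Of the 7 measured phosphodiesterase genes 3 were thus higher and 1 was lower, with a median log2 difference of 0.52. Pde4b and Pde4d counted as measured only through their signals with FSK/PMA. On neither array did 11 further phosphodiesterase genes exceed the floor. With the pseudocount 3 of 18 phosphodiesterase genes were higher, 2 were lower and the median was 0.02. Rgs1 and Rgs2, whose products end G protein signals, had 9.51, 1368 and 357 (Rgs1) and 9715, 40042 and 31217 (Rgs2) and were at least 10.9-fold higher and 4.12-fold higher. Rgs3 was at least 2.37-fold lower, with 298, 87.7 and 103, and the other 4 measured members of that family were within 2-fold. Another 9 members were below the floor on both arrays. With the pseudocount 2 of 16 were higher and 0 were lower. The family median of 0.29 ran from 0.17 to 1.68 between settings, over differing numbers of members.

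Negative regulators of the ERK pathway were higher in 7 of 9 measured cases, with a median log2 difference of 1.99. Over all 14 members, 5 of them below the floor on both arrays, the pseudocount gave 7 higher and a median of 0.87. Dusp6, the phosphatase of cytoplasmic ERK, had 1882, 18899 and 18501 and was 10.0-fold higher. Dusp5, its nuclear counterpart, had 191, 3062 and 1845 and was 16.1-fold higher. Errfi1, an inhibitor of the epidermal growth factor (EGF) receptor, had 271, 2836 and 1271 and was 10.5-fold higher. Control signals were the lowest in all 3. Dusp14 was 5.49-fold higher, Dusp1 was 3.98-fold higher, and the sprouty genes Spry4 and Spry2 were 3.20-fold higher and 3.00-fold higher. Dusp7 had 395, 266 and 642 and Dusp2 had 54.3, 136 and 61.4, and both lay within 2-fold.

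Among immediate early factors the EGR and NR4A list, with their coregulators and the IER genes, was higher in 9 of 11 cases, with a median of 2.11. That median was 1.33 with the pseudocount, over 13 members, and 1.34 with the mean of probe sets, where 7 of 11 were higher. The orphan receptor genes Nr4a1 and Nr4a3 had 421, 7994 and 6462 (Nr4a1) and 49.7, 2357 and 705 (Nr4a3), against 253, 791 and 429 for Nr4a2, which was 3.13-fold higher. The probe sets of Nr4a3 gave log2 differences of 4.23, 2.37 and 0.10, the last from a signal near the floor. Ier2, Ier3 and Ier5 were 6.00-fold, 4.32-fold and 5.40-fold higher. Egr1 had a control signal of 6161 and was 2.54-fold higher, and its corepressor gene Nab2 was 4.53-fold higher, while Nab1 had 2167, 2627 and 2723. The serum response factor gene Srf had 1312, 1709 and 2105, within 2-fold.

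AP-1 genes differed less. Past 2-fold were 4 higher and 0 lower of 11 measured genes, with a median of 0.67, or 6 higher and a median of 1.01 with a lower floor. With the pseudocount 3 of 15 were higher and the median was 0.56. With the mean of probe sets 3 of 11 were higher and it was 0.60. Junb was 3.36-fold higher, with 478, 1605 and 1176, Fosl1 was at least 2.99-fold higher, with 77.5, 376 and 391, and Fos was 2.50-fold higher, with 567, 1418 and 1539.6. Fosl2 was 2.17-fold higher, Jun had 677, 1287 and 1321 and Jund had 3576, 5004 and 4641. Atf3 had 68.4, 177 and 98.6, near the floor throughout. In the CREB family 3 of 16 were higher and 1 was lower. Crem, which encodes activators and the inducible repressor ICER, had 496, 4221 and 2619 and was 8.50-fold higher. Its 6 measured probe sets gave log2 differences from 0.45 to 3.85, and they may read different transcripts. Creb1 had 1368, 1167 and 1088 and the coactivator Crtc2 had 642, 661 and 589.7, both within 2-fold. The kinase Sik1, which restrains CRTC proteins, was 3.69-fold higher, whereas Sik2 had 722, 469 and 446 and Sik3 had 1626, 1532 and 1695. The membrane-bound factors Creb3l1 and Creb3 differed in opposite directions, 3.66-fold higher with 396, 1448 and 952 and 2.81-fold lower with 2727, 970.1 and 1079.

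Of 13 measured Kruppel-like factors 4 were higher and 1 was lower. Klf4 had 531, 1495 and 1518 and was 2.81-fold higher, Klf9 had 813, 2178 and 1912 and was 2.68-fold higher, and Klf12 had 209, 631 and 861 and was 3.02-fold higher. In these 3 genes both arrays with FSK/PMA stood above the control. Klf13 was 2.18-fold higher. Klf11 had 818, 135 and 209.5 and was 6.05-fold lower, and Klf2, Klf3, Klf5, Klf6, Klf7, Klf10, Klf15 and Klf16 were within 2-fold. With the mean of probe sets 2 of the 13 were higher and 0 were lower, so Klf11 and at least 2 of the 4 higher genes were then not past 2-fold. The homeobox and forkhead genes had 0 higher and 8 lower among 22 measured members, 36.4% against 11.4% for all genes, and 42 further members were below the floor on both arrays. With the pseudocount 6 of 64 were lower. Foxo1, a factor that growth factor signals exclude from the nucleus, had 11758, 2106 and 1520.3 and was 5.58-fold lower. Foxp1 was 3.41-fold lower, Foxl2, a maintenance factor of granulosa cell identity, was 3.39-fold lower, Foxn3 was 2.90-fold lower and Meis1 was 2.58-fold lower. Genes of the zinc finger name family had 4 higher and 24 lower among 192 measured members, a lower share of 12.5%, and 14 of 229 were lower with the pseudocount. The 4 higher genes were Zfp347, 5.61-fold higher, Zfp36, 3.97-fold higher, Zfp455l1, 2.86-fold higher, and Zfp36l2, 2.48-fold higher. Zfp36 and Zfp36l2 encode proteins that destabilise AU-rich messages.

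Regulators of follicle cell differentiation were split. Runx1 had 587, 11635 and 4598 and was 19.8-fold higher, the progesterone receptor gene Pgr had 44.4, 836 and 243 and was at least 6.64-fold higher, and Cebpb had 1760.5, 6575 and 5125 and was 3.73-fold higher. The nuclear receptors Nr5a1 and Nr5a2, which drive steroidogenic genes, were 2.83-fold lower and 3.00-fold lower, with 1971, 698 and 821 (Nr5a1) and 5506, 1837 and 1913 (Nr5a2). Gata6 was 2.62-fold lower, with 2362, 903 and 834, while Gata4 had 3202, 2753 and 1946. Nrip1, a corepressor needed for ovulation, had 2397, 544 and 327 and was 4.40-fold lower. Cebpa, Cebpd and Cebpg lay within 2-fold, with FSK/PMA signals of 848, 183 and 1160.1.

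Ligands of the EGF receptor differed in opposite directions. Amphiregulin, Areg, had signals of 203, 2505 and 889 and was 12.3-fold higher, and epiregulin, Ereg, had 73.1, 1364 and 326 and was at least 10.8-fold higher. Hbegf had 473, 36.6 and 72.6 and was at least 3.76-fold lower. Tgfa had 1606, 1266 and 2004, the receptor gene Egfr had 2229, 3242 and 2011 and the sheddase gene Adam17 had 4228, 4226 and 3745, each within 2-fold. For Areg and Ereg the control array was the lowest, and for Hbegf it was the highest.

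Peptide precursor genes had 6 higher and 1 lower among 11 measured members, of which 4 were above the floor on both arrays. Another 21 members were below it on both. With the pseudocount 6 of 32 were higher and the median was 0.17. Cga, the common alpha subunit of pituitary glycoprotein hormones, had 43.4, 1110.3 and 220.1 and was at least 8.82-fold higher. Scg2, secretogranin, had 160.5, 630.1 and 450.3 and was 3.93-fold higher, and the convertase gene Pcsk6 was at least 3.17-fold higher. Pam, which amidates peptides, had 8487, 15711 and 13043, within 2-fold. Nppc, the natriuretic peptide that keeps the oocyte arrested, had 525, 125 and 106 and was at least 4.17-fold lower, while its receptor gene Npr2 had 690.0, 412 and 483, within 2-fold. The genes of soluble guanylate cyclase, the nitric oxide receptor, Gucy1a1 and Gucy1b1, had 4172, 789 and 834 (Gucy1a1) and 477, 122 and 110.2 (Gucy1b1) and were 5.29-fold lower and at least 3.79-fold lower. Kitlg, the KIT ligand made for the oocyte, was 2.41-fold higher, with 528, 1273 and 1103, but not past 2-fold with the mean of its probe sets.

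Among inhibin and activin genes the beta B subunit Inhbb had 4272, 422 and 676 and was 10.1-fold lower, while the beta A subunit Inhba had 29368, 21912 and 8520.4 and the alpha subunit Inha stayed within 2-fold. Follistatin, Fst, which binds activin, was 3.78-fold lower. The receptor genes Acvr2a and Amhr2 were 2.15-fold higher and 2.26-fold lower, and Acvr1 and Acvr2b were within 2-fold. In the BMP and TGF-beta list 2 of 22 were higher and 5 were lower. Tgfb1 had 177, 1094 and 1154 and was 6.17-fold higher. Bmp2 had 6794, 1980.3 and 1303 and was 3.43-fold lower, the pseudoreceptor Bambi had 2599, 435 and 677 and was 5.98-fold lower, and Smad9 had 1511, 365 and 373 and was 4.14-fold lower. The common SMAD gene Smad4 had 3249, 3469.9 and 2961.

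Receptors for other hormones had 2 higher and 4 lower among 10 measured members, or 2 and 2 of 20 with the pseudocount. With the mean of probe sets 1 of 10 was higher and 3 were lower. The prolactin receptor gene Prlr had 10052, 886 and 762 on its brightest probe set, 11.3-fold lower. A second set gave 1717, 253 and 231 and a log2 difference of -2.76, and the last, at the floor, gave 0.01. The LH receptor gene Lhcgr had 6631, 2473 and 1150.2 and was 2.68-fold lower. The thyroid hormone receptor genes were opposed, Thrb 4.25-fold higher with 193, 821 and 679 and Thra 2.08-fold lower with 510.1, 245 and 312.

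Members of the WNT and Notch pathways also parted within families. Wnt4 had 424, 1019 and 1736 and was 2.40-fold higher, while Wnt5b had 1614, 39.0 and 41.3 and Wnt6 had 856, 223 and 105, at least 12.8-fold lower and 3.85-fold lower. The receptor gene Fzd8 had 424, 1921 and 1694 and was 4.53-fold higher, and Fzd6 was 2.34-fold higher. Of 26 measured WNT genes 4 were higher and 2 were lower. Among Notch targets Hey2 had 397, 3102 and 2341 and was 7.80-fold higher. Its relatives Hes1 and Hey1 had 1205, 166 and 239 (Hes1) and 323, 75.9 and 104 (Hey1) and were 7.25-fold lower and at least 2.56-fold lower. The receptor Notch1 was at least 2.34-fold higher and the ligand gene Jag1 was 2.05-fold higher, with 431, 883 and 158. Angiogenic factors were opposed as well, Vegfa 5.40-fold higher with 549.8, 2969.9 and 1801 and Angpt2 at least 4.16-fold lower with 524, 91.4 and 80.3.

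Steroid synthesis genes had 8 higher and 2 lower among 15 measured members, with a median of 1.44. With the pseudocount the counts over 17 members were the same and the median was 0.74. Fdx1, the ferredoxin that feeds electrons to the side-chain cleavage enzyme, had 12126, 43044 and 44024 and was 3.55-fold higher. Cyp11a1, that enzyme, had 5524, 17019.5 and 16508 and was 3.08-fold higher, and Por, the reductase of microsomal P450 enzymes, had 1085, 4143 and 2210.3 and was 3.82-fold higher. Control signals were the lowest in all 3. Hsd17b1, which makes estradiol from estrone, had 3539.8, 941 and 306 and was 3.76-fold lower, and Hsd3b1 had 33268, 32619 and 33148. Hsd3b genes are near copies, so that value may mix paralogs. Sult1e1, which inactivates estrogen by sulfation, had 82.3, 3298 and 694, and aromatase, Cyp19a1, had 120.1, 2490.3 and 992. The 3 measured probe sets of Cyp19a1 were all higher. In the cholesterol and lipid list 8 of 23 were higher, with a median of 0.81, and the 2 lower genes were the efflux transporters Abca1, 2.47-fold lower, and Abcg1, 2.10-fold lower.

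Arginine and polyamine genes had 6 higher and 0 lower among 16 measured members, and 4 higher with the mean of probe sets. Ass1, which makes argininosuccinate, had 159, 5336 and 2206, while Asl, the next enzyme, had 952, 886 and 1077. Odc1, the first enzyme of polyamine synthesis, had 4311, 17524 and 10877 and was 4.07-fold higher. Azin1, which frees ornithine decarboxylase from its antizyme, had 2286, 9142 and 5403, a log2 difference of 2.00, and the antizyme genes Oaz1 and Oaz2 were within 2-fold. The arginine transporter Slc7a1 was 2.34-fold higher, Sat1, which acetylates polyamines, was 2.30-fold higher, and Ckb was at least 2.83-fold higher.

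Genes of the amino acid response had 7 higher and 0 lower among 24 measured members, with a median of 0.69. The mitochondrial folate enzyme Mthfd2 had 234, 2251 and 1541 and was 9.63-fold higher, the transporter Slc7a5 had 147, 922 and 599 and was 6.25-fold higher, and Bcat1 had 419.7, 2089 and 1940.4 and was 4.98-fold higher. Chac1 and Ddit3, other targets of ATF4, had 357, 359 and 241 (Chac1) and 404, 358 and 251 (Ddit3), and neither passed 2-fold. These 2 lay outside the naming rule and were chosen after their values were seen. Cytoplasmic aminoacyl-tRNA synthetases were higher in 6 of 19 cases, with a median of 0.65, led by Tars1, 3.18-fold higher, Eprs1, 2.51-fold higher, and Nars1, 2.47-fold higher. Ribosome biogenesis genes were higher in 10 of 34, or 6 of 35 with the pseudocount, with a median of 0.63, led by Nolc1, 3.01-fold higher, Wdr12, 2.59-fold higher, and Rrp12, 2.36-fold higher. Ribosomal protein genes themselves were within 2-fold in 27 of 27 cases. In the citric acid cycle 0 of 22 genes passed 2-fold either way, and in the respiratory chain 1 of 37 did, Ndufa5, 2.10-fold higher. Initiation factor Eif4e, which binds the cap, was 2.74-fold higher, with 3513, 9630.1 and 7140.4, and Eef2k, the kinase of elongation factor 2, was at least 4.14-fold lower.

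Glucose handling showed single large differences, with 3 higher and 2 lower among 26 measured members of the glycolysis and pentose phosphate list. Slc2a1, the glucose transporter GLUT1, had 801, 3098 and 3539 and was 3.87-fold higher, and Pfkfb3, which makes the activator of phosphofructokinase, had 139.9, 658 and 306 and was 4.70-fold higher. Pdk2, a brake on pyruvate dehydrogenase, was at least 2.94-fold lower, with 371, 114 and 135, and Pfkm was 2.52-fold lower. In the redox list 5 of 28 measured members were higher, 3 were lower and 20 lay within 2-fold, with a median of -0.15. Among the higher ones, the antioxidant genes Sod2, Gclm, Srxn1 and Gss were 3.75-fold, 4.15-fold, 3.52-fold and 2.90-fold higher. Catalase, Cat, was 2.34-fold lower, with 2689, 1148 and 1446, and the metallothionein gene Mt2A was 2.08-fold lower. Metallothionein genes are near copies and may share signal.

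Proteases of the follicle wall differed in both directions. Plat, tissue plasminogen activator, had 121, 4863 and 5967, and Plau, urokinase, had 1215, 209 and 253 and was 5.82-fold lower, while its receptor gene Plaur had 129, 1669 and 1696 and was 13.0-fold higher. Thus Plat and Plaur were higher and Plau was lower. Adamts4 had 178, 2473 and 2117, Adamts5 had 1037, 157 and 164 and was 6.62-fold lower, and Adamts1 had 1587, 1909.9 and 932, within 2-fold. The inhibitor Timp1 was 4.10-fold higher, with 2688, 11010.1 and 14983, and the inhibitor Serpinb2 was at least 7.21-fold higher. Structural matrix genes were higher in 2 of 26, Col18a1, 5.05-fold higher, and Itga1, 4.83-fold higher. The lower ones were the laminin genes Lama4, 4.21-fold lower, and Lama1, 3.04-fold lower, and the integrin gene Itga5, at least 2.70-fold lower.

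Junction and polarity genes had 3 lower and 2 higher among 19 measured members. Cgnl1, a scaffold of tight and adherens junctions, had 4979.6, 459 and 668 and was 10.8-fold lower, and Jup, plakoglobin, had 3745, 719.5 and 772 and was 5.21-fold lower. The gap junction gene Gja1 had 39138, 22929.6 and 18090.5, within 2-fold. Cldn11 was at least 3.16-fold higher and Gjc1 was 2.13-fold higher. In the actin list 5 of 27 were higher and 3 were lower. Tes, Cnn3 and Tpm4, genes of stress fibre proteins, were 3.89-fold, 3.52-fold and 2.41-fold higher, and the myosin genes Myh10 and Myl9 were 3.49-fold lower and 2.12-fold lower. Vesicle fusion gene Snap25 had 40.1, 658 and 649 and was at least 5.23-fold higher, while Rab3a, Cadps and Rab3d were at least 2.98-fold, 2.82-fold and 2.44-fold lower. Of the Hippo list 4 of 17 were lower and 1 was higher, with Amotl1 2.42-fold higher opposite its relative Amotl2.

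Regulators of cell cycle exit were split too. The CDK inhibitor gene Cdkn1a, p21, had 2564, 8273 and 7590.1 and was 3.23-fold higher. Cdkn1b, p27, had 15176, 3161 and 4664 and was 4.80-fold lower, and the pocket protein gene Rbl2 had 2109, 495 and 642 and was 4.26-fold lower. Of the 26 measured genes 6 were higher and 4 were lower. Myc was 2.73-fold higher, with 668, 1823 and 1502, and Mycn was at least 2.58-fold lower, with 325, 119 and 95.5. Pcna, the replication clamp, was 2.15-fold higher. Of 29 measured genes of S phase and mitosis, Pcna included, 4 (13.8%) were higher, 1 (3.45%) was lower and 24 lay within 2-fold. The share within 2-fold was near the 81.15% of all measured genes. Many of these genes were dim, and only 5 were measured with the floor at the 75th percentile. In the apoptosis list Mcl1 had 4010.4, 11539 and 11451 and was 2.88-fold higher, and Bcl2l1, which encodes BCL-XL, had 439, 148 and 267 and was 2.97-fold lower. Both encode survival proteins. Bok was 2.94-fold lower, Bcl2l11 was 2.27-fold higher, and the receptor Tnfrsf12a had 1206, 9781 and 8311 and was 8.11-fold higher.

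The phosphoinositide kinase and FOXO list had 5 lower and 2 higher among 24 measured members. Pik3ip1, an inhibitor of the kinase, had 2461, 176 and 275, and the catalytic subunit gene Pik3cd had 2195, 615 and 634 and was 3.57-fold lower. Pik3r1, the regulatory subunit, had 208, 706 and 558 and was 3.39-fold higher. Sgk1, a kinase downstream of that pathway, was 2.25-fold lower, and Deptor, an inhibitor of mTOR, was 2.28-fold lower.

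Interferon and antigen presentation genes had 0 higher and 10 lower among 32 measured members (31.2%), with a median of -0.53. With the floor at the 75th percentile 1 of 13 was lower, against 6.66% of all genes, and with the pseudocount 5 of 39 were lower. Oas1a had 829, 203 and 114 and was 4.08-fold lower, and the peptide transporter gene Tap1 had 468, 102 and 157 and was at least 3.71-fold lower. The immunoproteasome genes Psmb8 and Psmb9 were 2.25-fold lower and 2.18-fold lower, while B2m had 8805, 9319 and 10056. Proteasome genes of the standard particle had 2 higher and 0 lower among 30 measured members. Cytokine and NF-kB genes had 9 higher and 0 lower among 23 measured members, or 7 of 38 higher with the pseudocount. Il18 had 291, 1048 and 1339 and was 3.60-fold higher, Nfkb1 had 899, 2896 and 2278 and was 3.22-fold higher, and the inhibitor gene Nfkbib had 991, 4014 and 4317 and was 4.05-fold higher. Nfkbia, the usual feedback inhibitor, had 1148, 1003 and 1012, and it was named after its value was seen. Leukocyte markers gave 1 of 8 higher, Cd14, 2.46-fold higher, and 1 lower, Cybb, 2.20-fold lower. Their part in the cytokine and interferon values was not tested.

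ATP-binding cassette genes were lower in 7 of 25 cases (28.0%), among them Abcc4, 2.95-fold lower, and Abcc3, 2.30-fold lower. That count was 4 of 25 with array median scaling and 2 of 37 with the pseudocount, where 4.87% of all genes were lower. Abcc9 and Abcb1a were at least 4.51-fold higher and at least 4.17-fold higher. Potassium channel genes were lower in 6 of 21 (28.6%), with Kcnh2 at least 6.94-fold lower and Kcng2 5.92-fold lower, and higher in 2, Kcne4 3.58-fold higher and Kcns3 at least 2.57-fold higher. The lower count was 3 of 21 with the mean of probe sets, 4 of 75 with the pseudocount and 0 of 4 with the floor at the 75th percentile. Solute carriers, at 22 lower (13.3%) and 16 higher (9.64%) of 166, lay near the background. In that family the iron exporter Slc40a1 had 637, 106 and 102 and was at least 5.06-fold lower, and the zinc transporters Slc39a14 and Slc30a1 were 3.99-fold higher and 3.88-fold higher. Tripartite motif genes were lower in 6 of 22, with Trim2 16.1-fold lower and Trim37 6.52-fold lower, against Trim36 at least 7.52-fold higher, and the lower count was 4 of 22 with quantile normalisation and 3 of 35 with the pseudocount. Of the protein tyrosine phosphatases 4 of 22 were higher and 4 were lower, with Ptpn12 3.10-fold higher and Ptpn4 6.71-fold lower. Guidance genes gave Sema3a at least 4.05-fold higher and Sema6d 6.59-fold lower, and Eph receptors gave Ephb3 at least 2.77-fold higher and Ephb4 3.72-fold lower.

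Probe sets without a single gene name held differences of like size. Past 2-fold lay 226 higher (5.89%) and 390 lower (10.2%) among 3834 measured sets, and 17 and 9 passed 8-fold. These counts include sets named for several genes, which were left out of the ranking that follows. Among sets with no gene name at all, the highest had signals of 169.8, 7207 and 2984 and was 42.4-fold higher. The next had 167, 5789 and 1139 and was 34.7-fold higher. The lowest of the sets with no gene name had 2294, 176 and 262, 13.05-fold lower, and the next lowest had 4681, 367 and 273. Their genes are not named in the annotation used here.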

How the data were processed

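Each array measured pooled RNA of 3 experiments. The authors deposited MAS5 intensities on a linear scale for 31099 probe sets, per the submitters' processing notes; its version is not stated there. Each deposited column had a 2% trimmed mean of 500.2, so it had been scaled. With 1 array per group no test was made and precision is limited by their number.

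Values were floored at 126 and put on the log2 scale. The platform annotation named 1 gene for 20832 probe sets, and symbols were updated through Entrez IDs. A gene was read from its brightest probe set on average, and counted as measured when either array exceeded the floor. Named were the 30 highest and 30 lowest genes at 4 times the floor or more with all measured probe sets in 1 direction, 15 genes that went from below the floor to that level and 15 that did the reverse, up to 8 members of each of 61 lists (every member of some, and paralogs), and 4 genes in each direction of 19 name families. Others are marked as chosen after their values were seen. The genes, lists and rules were chosen with earlier results of these data known. Of 1471 list genes 1321 were matched. Python 3.11.15, pandas 2.3.3 and numpy 2.4.6 were used, and the code was tested on simulated data. Other floors, a pseudocount, scalings and probe set rules were tried.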

Additional observations from a re-analysis of the deposited data

How the results depend on the processing

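The count of higher genes, 699, was 421 with the floor at the 75th percentile of signals, and the count of lower genes, 1072, was 402 with that floor and 693 with a pseudocount in place of a floor. That floor left fewer genes measured, 6035 in place of 9395. The other settings, a lower floor, array median, quantile and trimmed mean scaling, the mean of probe sets, leaving out sets that can bind several transcripts, and a lowess curve chosen after seeing the data, kept both counts within 1.5 times. All 71 genes named as highest, lowest, on or off kept their direction wherever they were measured. That was nearly given, as they were picked for large differences. Past 2-fold stayed 58 with the higher floor, against all those measured under each other setting. Among list medians, 675 comparisons with the main value moved by less than 0.35 and 43 by more. Of those 43, 22 came with the higher floor, 10 with the pseudocount and 6 with the lower floor. The lists for peptide precursors, ERK feedback, steroid synthesis and EGR and NR4A factors were among them, with their lowest medians under the pseudocount at 0.17, 0.87, 0.74 and 1.33. No paired analysis was possible because each group had 1 array, and for the same reason no replicate could be left out. Low signals limit the folds to bounds, and the spread between cultures is unknown.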
